A study of Homo sapiens with 18 samples.

Results

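The hypoxia-response genes outside glycolysis comprised 37 of the 26941 genes in the count tables. They were chosen by their known role in oxygen sensing or in the response to low oxygen, glycolytic enzymes left aside, and on earlier results of the *SOX11* siRNA contrast in these same samples, in which many were higher in RCH-ACV. The values of that contrast are therefore given as a description. Where a gene had several RefSeq transcripts, the one with the most counts in the 18 samples stood for it.

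Cells sense oxygen through the hypoxia-inducible factor, HIF, which pairs an oxygen-labile alpha subunit (HIF1A or EPAS1) with the stable beta subunit ARNT. With oxygen present, the EGLN prolyl hydroxylases mark the alpha subunits for VHL, the recognition subunit of a ubiquitin ligase, and HIF1AN hydroxylates them at an asparagine that coactivators need. When oxygen is short the alpha subunits accumulate, mainly through the stability of the protein, and HIF turns on genes of blood vessel growth, mitochondrial turnover, growth restraint, collagen hydroxylation and histone demethylation.

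RNA was measured by sequencing in REH, 697 and RCH-ACV, human cell lines derived from B-cell precursor acute lymphoblastic leukemia. Each line had 3 samples with *SOX11* siRNA and 3 with a non-specific control siRNA, both introduced by nucleofection at 300 nM, with RNA taken 48 h later, so the control cells had also been transfected. The replicates are called biological replicates by the study, every line was grown in its ordinary medium, and no sample was labelled as kept at low oxygen.

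Total counts on the 26941 genes lay between 7039594 and 16592492, and the deepest library was the second *SOX11* siRNA replicate of RCH-ACV. Levels are given in CPM, counts scaled to library size with 1 TMM scaling over the 18 samples, and 3 counts correspond to 0.179 to 0.441 CPM depending on the library, which covers counting error only. The log2 change of *SOX11* was -0.83 (SE 0.06) for REH, -0.91 (SE 0.07) for 697 and -0.67 (SE 0.05) for RCH-ACV, and its groups did not overlap, although the sample titles name these cells a knockout. By the chi-square of their counts per degree of freedom, 3 libraries stood apart from the other replicates of their group: the third *SOX11* siRNA replicate of 697 (3.57 and 4.73, against 1.61 between the others), its first control (4.3 and 5.18, against 1.81) and the third *SOX11* siRNA replicate of RCH-ACV (3.47 and 4.49, against 1.33). Each of the 10 B-precursor markers was counted in every line, although *VPREB1* was near 0 in REH. Their summed level was 4.28e+03 to 4.44e+03 CPM in REH controls and 4.7e+03 to 4.79e+03 CPM with *SOX11* siRNA. In 697 it was lower with *SOX11* siRNA, at 2.47e+03 to 2.54e+03 CPM against 2.72e+03 to 2.76e+03 CPM. The RCH-ACV groups overlapped. Of 11 markers of other cell types, *CD3D*, *CD4*, *GATA1*, *HBB* and *EPCAM* were at 0 in all groups. The summed level of these 11 lay between 4.78 and 5.72 CPM in RCH-ACV controls and between 7.86 and 9.27 CPM with *SOX11* siRNA, mostly through *PECAM1* (4.52 against 8.21 CPM). In REH it lay between 14.6 and 17.2 CPM in controls and between 9.49 and 12.2 CPM with *SOX11* siRNA, mostly through *MPO* (13.5 against 7.90 CPM). Whether these counts came from other cells or from the line itself was not tested, nor was their part in the results below. In bulk RNA, fewer cells of a kind and less RNA per cell cannot be told apart.

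HIF binds a short core, ACGTG or GCGTG, in the DNA near its target genes, so the 250 bases before the first listed start of each gene were searched for these letters on both strands. A promoter was found in RefSeq (GRCh38.p14) for 31 of the 37 members. Of these, 25 held one core or the other, or 80.6%, against 43.1% of 27305 promoters of all genes. ACGTG was in 61.3% of the members' promoters and in 18.7% of all promoters. GCGTG was in 54.8% and 31.9%. The members were listed for a known role in oxygen sensing or the response to low oxygen, so nothing is read from these shares. The windows were not matched for base content. The letters on both strands of a CACGTG were counted once for each strand. The 5 promoters shown here belong to members that were higher with *SOX11* siRNA in RCH-ACV, printed 5′ to 3′ on the strand of the gene and as far as they lie outside its GENCODE transcripts. Capitals mark the ACGTG and GCGTG cores and their complements CACGT and CACGC.

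*DDIT4* promoter, chr10:72273674-72273923, plus strand: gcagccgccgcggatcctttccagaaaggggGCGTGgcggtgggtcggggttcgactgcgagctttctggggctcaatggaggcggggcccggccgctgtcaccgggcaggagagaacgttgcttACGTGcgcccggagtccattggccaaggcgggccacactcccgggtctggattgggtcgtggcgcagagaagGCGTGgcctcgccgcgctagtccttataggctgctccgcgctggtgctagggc
*BNIP3* promoter, chr10:131981968-131982173, minus strand: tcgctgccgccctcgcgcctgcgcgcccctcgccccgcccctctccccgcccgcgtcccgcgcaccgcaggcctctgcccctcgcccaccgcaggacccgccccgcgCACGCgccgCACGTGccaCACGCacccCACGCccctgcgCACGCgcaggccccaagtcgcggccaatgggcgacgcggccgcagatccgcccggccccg
*AK4* promoter, chr1:65147302-65147551, plus strand: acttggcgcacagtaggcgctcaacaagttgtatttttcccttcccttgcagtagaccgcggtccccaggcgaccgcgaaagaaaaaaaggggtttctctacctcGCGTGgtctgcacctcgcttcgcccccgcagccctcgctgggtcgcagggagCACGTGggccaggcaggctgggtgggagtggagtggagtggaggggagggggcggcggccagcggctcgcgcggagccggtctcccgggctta
*BHLHE40* promoter, chr3:4979187-4979436, plus strand: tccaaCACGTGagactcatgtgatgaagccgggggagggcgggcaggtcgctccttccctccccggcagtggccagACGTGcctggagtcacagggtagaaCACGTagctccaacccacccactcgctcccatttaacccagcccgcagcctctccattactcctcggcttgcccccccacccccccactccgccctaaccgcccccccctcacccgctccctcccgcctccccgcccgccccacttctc
*FAM162A* promoter, chr3:122383932-122384160, plus strand: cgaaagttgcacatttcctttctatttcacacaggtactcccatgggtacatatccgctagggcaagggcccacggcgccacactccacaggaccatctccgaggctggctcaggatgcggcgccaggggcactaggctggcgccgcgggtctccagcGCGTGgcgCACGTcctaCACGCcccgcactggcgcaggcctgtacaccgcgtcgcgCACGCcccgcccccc

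*DDIT4* held its ACGTG 125 bases before the start and a GCGTG on either side of it, at 219 and 53 bases. *BNIP3* held 6 matches between 143 and 104 bases before the start, among them 1 CACGTG. *AK4* had a CACGTG at 93 bases and *BHLHE40* one at 245 bases. Of the members higher in RCH-ACV, 10 had a promoter in the table and all 10 of these windows held a core. So did 11 of the 14 windows (78.6%) of members that were tested there and did not pass. These matches describe the letters of the windows and are not evidence of binding.

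With *SOX11* siRNA, 13 of the 30 members tested in RCH-ACV rose and 0 fell, where 3.59% of 12963 genes rose and 3.92% fell. A gene was called when its adjusted p-value was under 0.05 (edgeR's quasi-likelihood test, Benjamini-Hochberg adjustment over all genes tested in that line). In REH 1 of 28 members rose, *EGLN1*, and 2 fell, *HILPDA* and *KDM4B*, beside 2.64% of genes higher and 2.01% lower. In 697 0 of 30 members passed in either direction, beside 0.0822% of genes higher and 0.477% lower (2 members had an unadjusted p under 0.05, and DESeq2 called 0). Without the third *SOX11* siRNA replicate of 697, 1 member was called there, *MIR210HG*, and without its first control 0. Without the third *SOX11* siRNA replicate of RCH-ACV, 14 members were called in that line. The median log2 change of the members tested was -0.06 in REH, 0.02 in 697 and 0.16 in RCH-ACV, each beside a median of 0.00 over all genes tested. Nothing is read from these shares, since the members were chosen with this contrast known. Whether groups overlapped is given below gene by gene as a description. It rests on the samples that gave the calls, and its share over all genes was not counted. Without the deepest library, the same 13 members were called in RCH-ACV. The calls in REH were less stable: DESeq2 kept *HILPDA* alone, and 0 were called in 1 fit over the 18 samples.

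**Figure D1:**
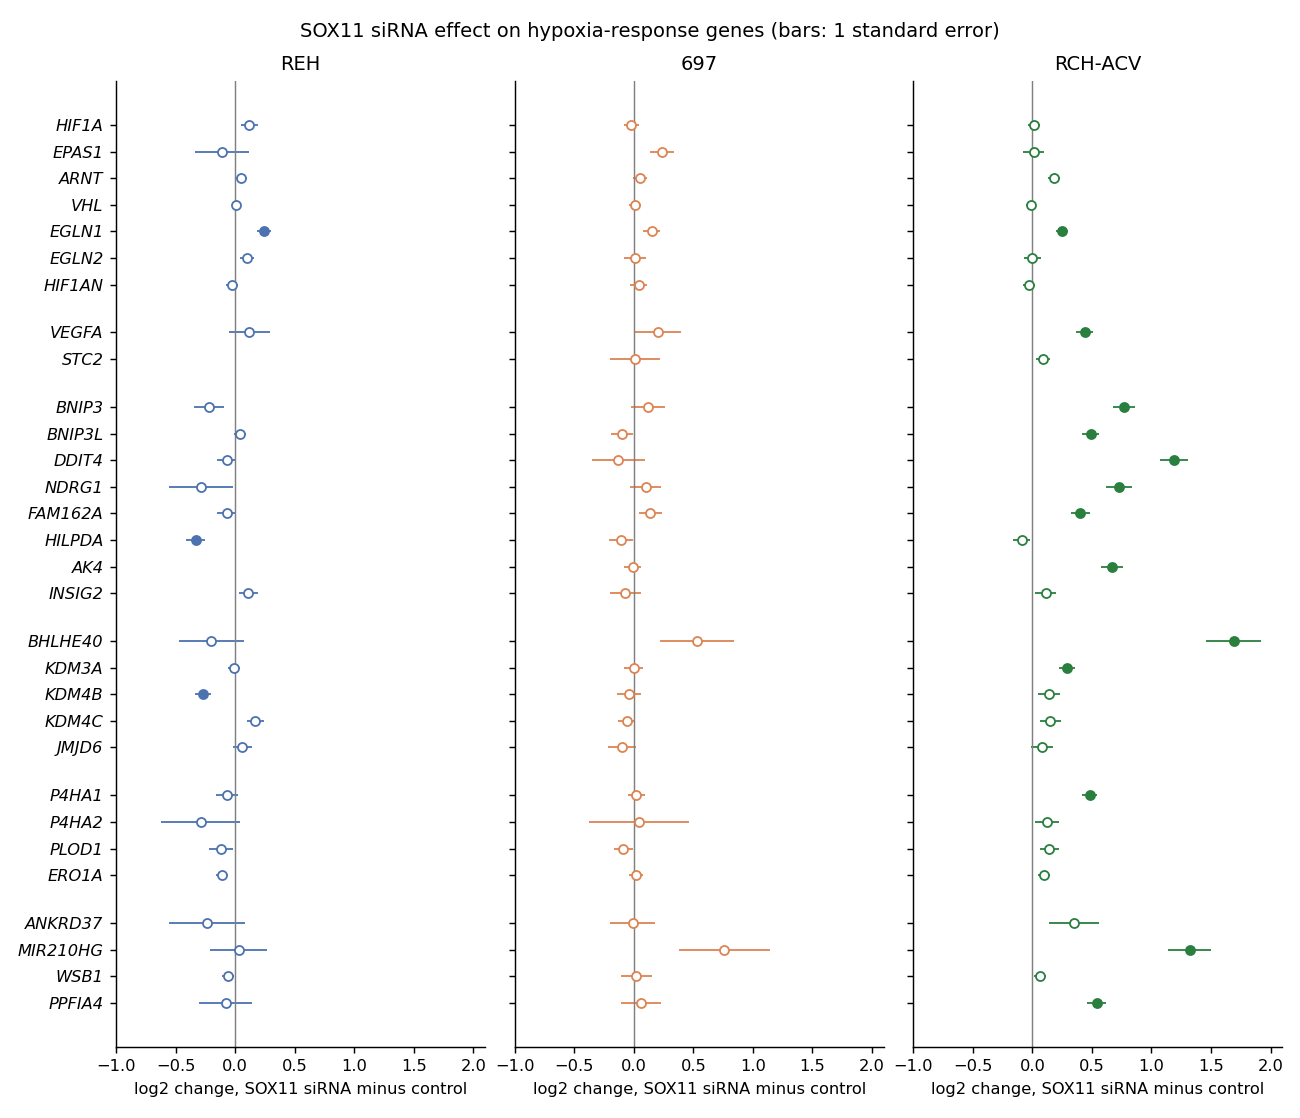
Log2 change with *SOX11* siRNA against control siRNA for the members tested in each cell line, grouped by role from oxygen sensing at the top to other induced transcripts at the bottom. Points are estimates, bars are 1 standard error, and filled points passed the adjusted p threshold: 3 in REH, 0 in 697 and 13 in RCH-ACV, where *BHLHE40* lies farthest to the right at 1.69.

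Among the members of oxygen sensing, only *EGLN1* passed in RCH-ACV. The HIF subunits among the members, *HIF1A*, *EPAS1* and *ARNT*, were called in no line. *EGLN1*, the main prolyl hydroxylase and itself a HIF target, was at 112, 111 and 112 CPM in RCH-ACV controls and at 124, 134 and 141 CPM with *SOX11* siRNA, a log2 change of 0.25 (SE 0.05). Its levels in REH were 52.4, 52.8 and 49.6 CPM in controls and 56.9, 59.2 and 66.1 CPM with *SOX11* siRNA, a log2 change of 0.24 (SE 0.06). In both lines the groups did not overlap. In 697 they did, at 139, 126 and 118 CPM against 135, 149.6 and 141 CPM, a log2 change of 0.15 (SE 0.07). A rise confined to RCH-ACV thus does not describe *EGLN1*.

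*HIF1A* was at 228, 225 and 223 CPM in RCH-ACV controls and at 225, 214 and 242 CPM with *SOX11* siRNA (log2 change 0.01, SE 0.05). Its log2 change was 0.12 (SE 0.07) in REH and -0.02 (SE 0.06) in 697, and it was called in none of the 3 lines. *EPAS1*, the second alpha subunit, was at 25.6, 21.7 and 27.4 CPM in RCH-ACV controls and 26.3, 25.4 and 23.9 CPM with *SOX11* siRNA, so its groups overlapped. In 697 it was at 84.0, 80.2 and 83.0 CPM in controls against 91.8, 83.8 and 116 CPM (log2 change 0.24, SE 0.10), with the third *SOX11* siRNA replicate highest. *ARNT* was at 77.7, 73.7 and 72.7 CPM in RCH-ACV controls and 86.5, 82.1 and 85.4 CPM with *SOX11* siRNA, a log2 change of 0.18 (SE 0.05) without overlap that did not pass the threshold.

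*VHL* had log2 changes of 0.01 (SE 0.04) in REH, 0.01 (SE 0.05) in 697 and -0.01 (SE 0.04) in RCH-ACV. Its RCH-ACV libraries lay at 173, 177 and 181 CPM in controls and 176, 176 and 177 CPM with *SOX11* siRNA. *EGLN2*, a second prolyl hydroxylase, was at 65.3, 59.9 and 67.9 CPM and 62.8, 68.0 and 60.9 CPM. *HIF1AN*, the asparagine hydroxylase, was at 84.1, 80.3 and 81.1 CPM and 76.9, 81.7 and 80.4 CPM. For these 3 genes the groups overlapped in RCH-ACV and none was called in any line. *EGLN3*, a prolyl hydroxylase that HIF induces in many cell types, had 0 counts in every one of the 18 libraries.

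Of the secreted and surface products, *VEGFA* rose in RCH-ACV and the rest were not called or too low to be tested. *VEGFA*, the main growth factor of blood vessels, was at 46.1, 42.1 and 41.9 CPM in RCH-ACV controls and at 55.2, 62.1 and 58.5 CPM with *SOX11* siRNA (log2 change 0.44, SE 0.07). Its groups did not overlap there. In 697 they did, at 38.3, 49.2 and 38.8 CPM against 49.1, 63.2 and 32.7 CPM (log2 change 0.20, SE 0.20), and the third *SOX11* siRNA replicate was below every control. REH held little *VEGFA*, 5.70, 5.24 and 6.09 CPM in controls and 6.72, 4.22 and 6.89 CPM with *SOX11* siRNA. *STC2*, a secreted stanniocalcin, had a log2 change of 0.09 (SE 0.06) in RCH-ACV and 0.01 (SE 0.21) in 697, and was too low to be tested in REH.

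The genes of mitochondria, autophagy, growth and lipid held the most calls, with 6 of the 8 tested in RCH-ACV higher and 0 lower, and a median log2 change of 0.58. *DDIT4* (hg19 chromosome 10 from 74033678 to 74035794), an inhibitor of mTORC1 signalling, was at 26.0, 21.2 and 20.8 CPM in RCH-ACV controls. With *SOX11* siRNA it was at 42.6, 59.8 and 50.8 CPM, 2.29-fold the control level (log2 change 1.19, SE 0.12). Every treated library lay well above every control, and the first was the lowest of the 3. REH stood at 29.3, 30.1 and 28.5 CPM in controls and 26.5, 29.6 and 28.0 CPM with *SOX11* siRNA (log2 change -0.07, SE 0.08). In 697 the replicates spread widely, with 70.3, 72.7 and 45.4 CPM in controls and 59.4, 75.0 and 38.5 CPM with *SOX11* siRNA (log2 change -0.13, SE 0.22). The third replicate was the lowest in both groups of 697, and the groups overlapped in REH and in 697.

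*BNIP3* and *BNIP3L* encode related receptors of the outer mitochondrial membrane that mark mitochondria for autophagy. *BNIP3* (hg19 chromosome 10 from 133781188 to 133795471) was at 33.4, 26.5 and 33.1 CPM in RCH-ACV controls and 49.3, 56.1 and 52.0 CPM with *SOX11* siRNA (log2 change 0.77, SE 0.09). In REH it was at 15.2, 10.6 and 12.3 CPM against 10.8, 9.62 and 11.8 CPM (log2 change -0.22, SE 0.13). The 697 levels were 28.1, 18.7 and 19.5 CPM against 23.7, 25.6 and 23.1 CPM (log2 change 0.12, SE 0.14). The groups separated in RCH-ACV and overlapped in the other lines. *BNIP3L* was at 85.8, 96.0 and 85.8 CPM in RCH-ACV controls and 108, 136 and 130 CPM with *SOX11* siRNA (log2 change 0.49, SE 0.07). Its log2 changes were 0.04 (SE 0.05) in REH, where controls were highest at 166, 156 and 154 CPM, and -0.10 (SE 0.09) in 697. So both mitophagy receptors were higher in RCH-ACV, the larger change belonging to the one with fewer counts.

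*AK4*, a mitochondrial adenylate kinase (hg19 chromosome 1 from 65613232 to 65697828), was at 33.8, 30.3 and 31.3 CPM in RCH-ACV controls and 43.1, 51.9 and 56.1 CPM with *SOX11* siRNA, a log2 change of 0.67 (SE 0.09). In 697 it was more abundant and level, at 86.9, 80.4 and 75.3 CPM against 80.0, 85.5 and 76.4 CPM (log2 change -0.01, SE 0.07). REH had 7 counts of *AK4* over its 3 controls and 2 over its 3 *SOX11* siRNA libraries, so the gene was not tested there.

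*NDRG1*, a stress-induced gene of growth arrest and differentiation, was at 13.6, 12.5 and 10.9 CPM in RCH-ACV controls and 19.8, 22.1 and 18.7 CPM with *SOX11* siRNA (log2 change 0.73, SE 0.11). *FAM162A*, a mitochondrial protein linked to cell death at low oxygen, was at 41.7, 43.5 and 38.8 CPM and 56.7, 56.8 and 49.1 CPM (log2 change 0.40, SE 0.08). Neither gene's groups overlapped in RCH-ACV, and both overlapped in REH and 697. *HILPDA*, an inhibitor of lipolysis at lipid droplets, went the other way in REH, where it fell from 40.4, 35.3 and 40.9 CPM to 31.5, 28.6 and 31.3 CPM (log2 change -0.33, SE 0.08). It was at 35.1, 35.3 and 34.8 CPM in RCH-ACV controls and 33.5, 33.7 and 31.7 CPM with *SOX11* siRNA (log2 change -0.09, SE 0.07), lower without overlap but not called. *INSIG2*, which restrains sterol synthesis, had log2 changes of 0.11, -0.07 and 0.11 in REH, 697 and RCH-ACV and was not called. Thus the only member of this role with a value below 0 in RCH-ACV was *HILPDA*.

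**Figure D2:**
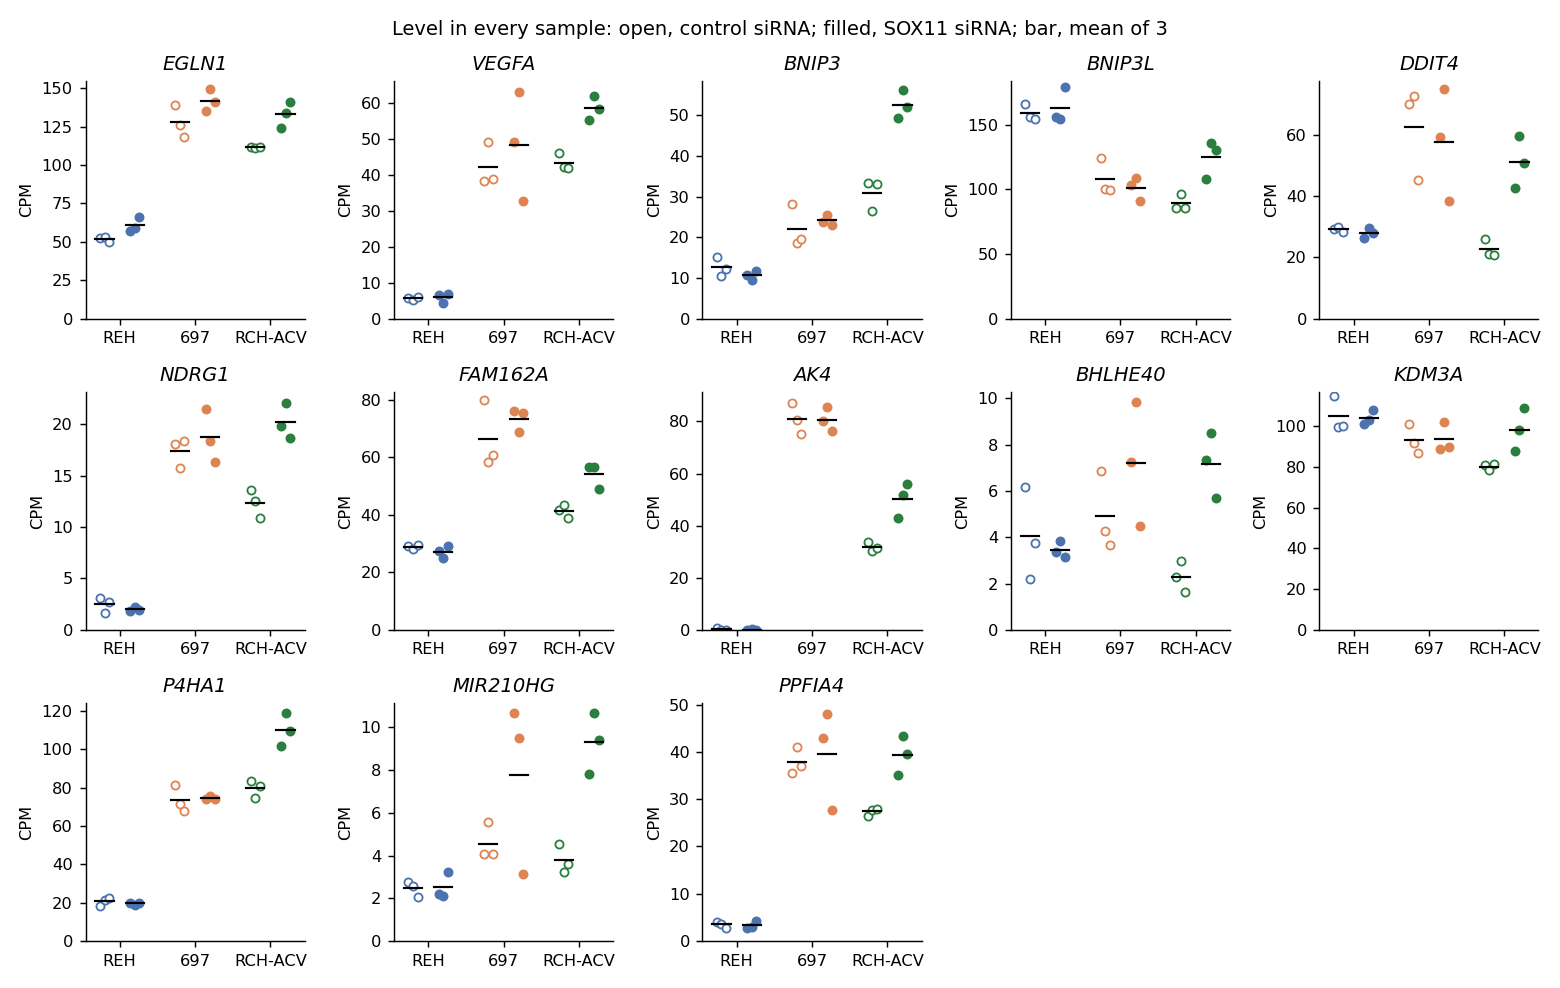
Level in CPM of the 13 members called in RCH-ACV, in each of the 18 samples. Open points are control siRNA, filled points *SOX11* siRNA, and bars the mean of 3. In RCH-ACV each filled point lies above every open one, as for *DDIT4* at 42.6 to 59.8 CPM against 20.8 to 26.0 CPM. The genes were called on these same samples, so the separation is no further support.

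Among nuclear regulators and demethylases 2 of 5 tested were higher in RCH-ACV and 0 lower. *BHLHE40*, a repressor of the clock and stress response (hg19 chromosome 3 from 5021122 to 5027008), had the largest log2 change of the members, 1.69 (SE 0.23), from 2.28, 2.99 and 1.63 CPM to 7.32, 8.50 and 5.68 CPM. Levels in 697 were 6.88, 4.26 and 3.65 CPM against 7.25, 9.86 and 4.49 CPM (log2 change 0.53, SE 0.31). REH stood at 6.18, 2.19 and 3.75 CPM against 3.36, 3.82 and 3.16 CPM (log2 change -0.20, SE 0.27). This gene is low in each line, and outside RCH-ACV its replicates spread more than its groups differed.

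*KDM3A*, a demethylase of histone H3 lysine 9, was at 80.8, 78.5 and 81.5 CPM in RCH-ACV controls and 87.9, 98.0 and 109 CPM with *SOX11* siRNA (log2 change 0.29, SE 0.07). Its log2 changes were -0.01 (SE 0.05) in REH and 0.00 (SE 0.08) in 697. The related demethylase *KDM4B* fell in REH, from 36.2, 41.9 and 39.5 CPM to 32.2, 33.9 and 32.0 CPM (log2 change -0.27, SE 0.07), and had a log2 change of 0.14 (SE 0.09) in RCH-ACV. *KDM4C* at 0.15 (SE 0.09) and the hydroxylase *JMJD6* at 0.08 (SE 0.09) were not called in RCH-ACV, and *RORA*, a nuclear receptor, was too low to be tested. Of the 3 demethylases, then, 1 passed in RCH-ACV, where it was higher, and another in REH, where it was lower.

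*P4HA1* was the 1 gene called among the 4 tested for collagen modification and oxidative folding in RCH-ACV. It encodes the catalytic subunit of collagen prolyl 4-hydroxylase (hg19 chromosome 10 from 74766975 to 74856732) and was at 83.3, 74.7 and 81.1 CPM in RCH-ACV controls and 102, 119 and 109.8 CPM with *SOX11* siRNA (log2 change 0.48, SE 0.06). The 697 libraries stood at 81.5, 71.7 and 68.0 CPM against 74.3, 75.6 and 74.3 CPM (log2 change 0.02, SE 0.07). REH held less, at 18.3, 21.3 and 22.4 CPM against 19.8, 19.0 and 19.8 CPM (log2 change -0.07, SE 0.09). Again the groups separated only in RCH-ACV. Its paralog *P4HA2* (log2 change 0.12, SE 0.10), the lysyl hydroxylase *PLOD1* (0.14, SE 0.08) and the disulfide oxidase *ERO1A* (0.10, SE 0.05) were not called in RCH-ACV.

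Of the other induced transcripts, 2 of 4 tested were higher in RCH-ACV. *MIR210HG*, the host transcript of the hypoxia-induced microRNA miR-210, was at 4.56, 3.25 and 3.61 CPM in RCH-ACV controls and 7.83, 10.7 and 9.39 CPM with *SOX11* siRNA (log2 change 1.32, SE 0.18). Its 697 libraries stood at 4.05, 5.58 and 4.05 CPM against 10.7, 9.51 and 3.14 CPM (log2 change 0.76, SE 0.38). There 2 of the 3 *SOX11* siRNA libraries lay above every control and the third below them, and without the third, *MIR210HG* was called in 697 too. *PPFIA4*, a liprin of the cell cortex, was at 26.5, 27.7 and 28.0 CPM in RCH-ACV controls and 35.2, 43.4 and 39.6 CPM with *SOX11* siRNA (log2 change 0.54, SE 0.08). In 697 it was at 35.6, 41.0 and 36.9 CPM against 42.9, 48.0 and 27.6 CPM, so the third replicate was again lowest. *ANKRD37*, an ankyrin-repeat protein, had a log2 change of 0.35 (SE 0.21) in RCH-ACV and *WSB1*, a subunit of a ubiquitin ligase, one of 0.06 (SE 0.05), and neither was called.

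Besides *EGLN3*, 6 members were too low to be tested in any line. *PLOD2*, a lysyl hydroxylase, had 0 counts in all 18 libraries. Totals over the 18 libraries were 5 counts for *CA9* (a surface carbonic anhydrase), 7 for *TMEM45A* (a membrane protein), 21 for *ADM* (the vasodilator peptide adrenomedullin), 48 for *LOX* (lysyl oxidase) and 49 for *RORA*. The highest single value among them was 1.31 CPM, for *RORA*. Several widely used marker genes of hypoxia thus had few or 0 counts in these libraries and could not be tested.

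Whether the effect of the siRNA differed between lines was tested for 30 members in 1 fit of the 18 samples. The difference over the 3 lines passed for 5 of them, *DDIT4*, *P4HA1*, *BNIP3*, *BNIP3L* and *AK4*, beside 0.734% of 14026 genes. Their adjusted p-values were 0.00757, 0.0147, 0.015, 0.0298 and 0.0429 (edgeR's quasi-likelihood test of the interaction). The pattern was known when the members were chosen, so these p-values are no independent support for it. For *BHLHE40* the adjusted p was 0.131, for *NDRG1* 0.0903 and for *EGLN1* 0.895, so 8 of the 13 members called in RCH-ACV were not shown to respond differently there.

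Against REH alone, 3 members had a higher effect in RCH-ACV, beside 0.257% of genes. The difference of log2 changes was 1.26 (SE 0.26) for *DDIT4*, 0.99 (SE 0.19) for *BNIP3* and 0.54 (SE 0.12) for *P4HA1*, with adjusted p-values of 0.0175, 0.0113 and 0.0281 (edgeR). Against 697 alone, *DDIT4* passed, at 1.32 (SE 0.25) and an adjusted p of 0.019 (edgeR), beside 0.0784% of genes. The difference from 697 was 0.65 (SE 0.18) for *BNIP3*, 0.59 (SE 0.12) for *BNIP3L*, 0.67 (SE 0.15) for *AK4* and 0.46 (SE 0.10) for *P4HA1*, with adjusted p-values of 0.223, 0.0608, 0.0749 and 0.0749 (edgeR). *AK4* could not be compared with REH, where it was near 0. Both comparisons use the same RCH-ACV samples. The calls of the test over the 3 lines changed with single libraries: 0 members passed without the second *SOX11* siRNA replicate of RCH-ACV, the deepest library, and 2 without its second control. Leaving out the first or the third RCH-ACV control, or the first *SOX11* siRNA replicate of REH or of 697, left 3. With no filter on low counts 10 passed. The sizes moved less than the calls: without the deepest library the log2 change in RCH-ACV was 1.04 for *DDIT4*, 0.70 for *BNIP3*, 0.64 for *AK4*, 0.42 for *BNIP3L* and 0.41 for *P4HA1*, with adjusted p-values of the test over the 3 lines between 0.0632 and 0.175 (edgeR). The median difference over the 30 members was then 0.29 against REH and 0.18 against 697, where it was 0.31 and 0.20 with all samples. Over all genes tested each of these medians was 0.01. The members' medians against REH include *AK4* and *STC2*, which were near 0 in REH.

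**Figure D3:**
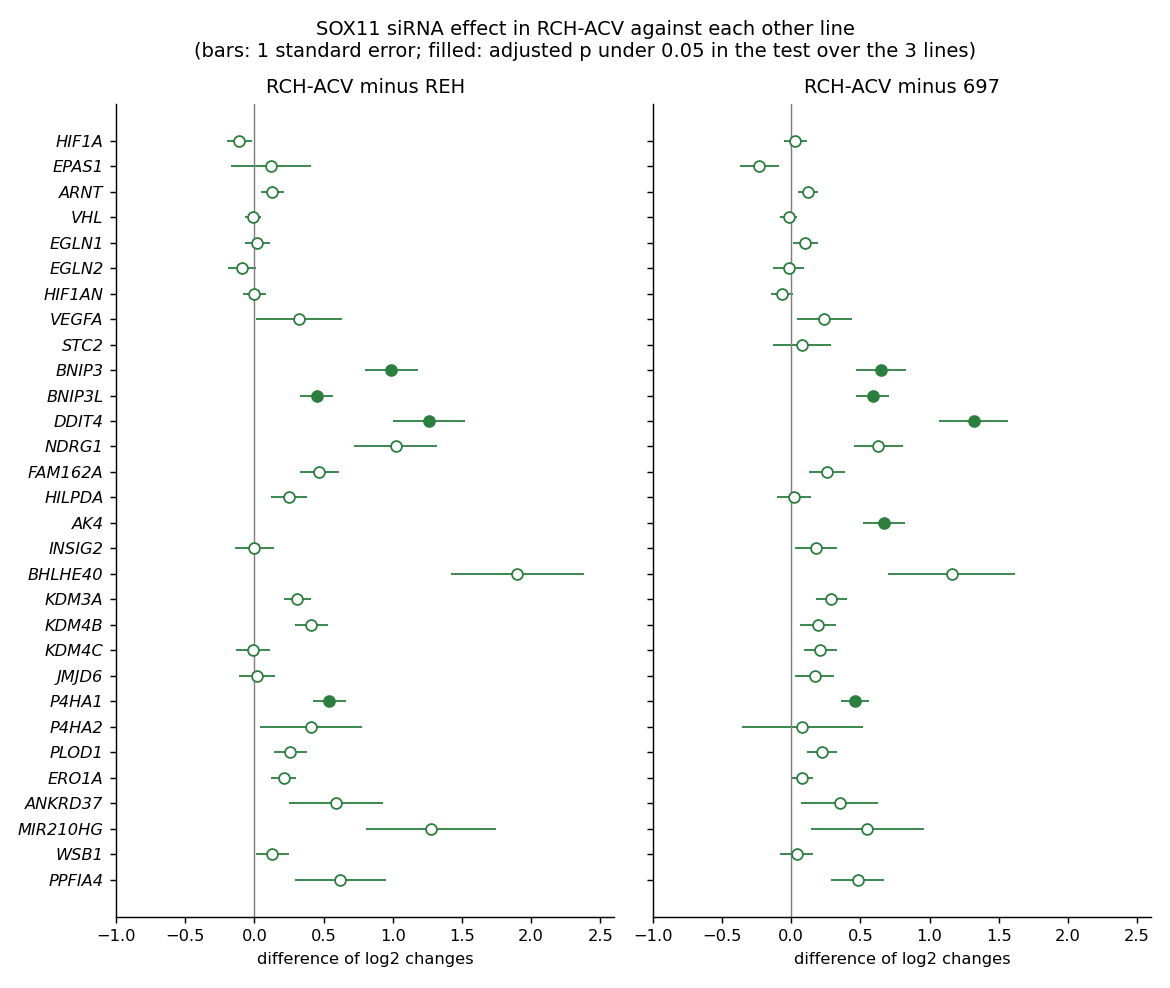
Difference between cell lines in the log2 change with *SOX11* siRNA, RCH-ACV minus REH on the left and RCH-ACV minus 697 on the right, with bars of 1 standard error. Filled points had an adjusted p under 0.05 in the test over the 3 lines; *DDIT4* lies at 1.26 and 1.32, and *AK4* and *STC2* are not drawn against REH, where they were near 0.

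Levels in control cells differed between the lines for most members, as they did for most genes. Over all 13686 genes, 73.7% were called for RCH-ACV against REH, 64.2% for RCH-ACV against 697 and 76.2% for 697 against REH. The same control libraries entered the siRNA contrast that was known when the members were chosen, so these levels are not independent of that choice. RCH-ACV against REH gave 17 members higher and 8 lower of 30 tested, beside 37.6% of genes higher and 36.1% lower. Against 697, 5 were higher and 18 lower in RCH-ACV, beside 33.3% and 30.9% of genes. In 697 against REH, 19 were higher and 7 lower, beside 36.9% and 39.3% of genes. The 3 comparisons share the 9 control samples, and the line, its own table and its culture cannot be told apart.

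The largest of these differences were low values in REH, except for *P4HA2*, which was high in RCH-ACV. *HIF1A* was at 28.9, 30.8 and 28.9 CPM in REH controls, 263, 253 and 227 CPM in 697 and 228, 225 and 223 CPM in RCH-ACV. It was thus 7.68-fold higher in RCH-ACV than in REH (log2 difference 2.94, SE 0.06, adjusted p = 6.76e-18, edgeR). *EPAS1* was at 3.33, 2.5 and 2.33 CPM in REH controls, 84.0, 80.2 and 83.0 CPM in 697 and 25.6, 21.7 and 27.4 CPM in RCH-ACV. All 3 lines differed in it, with log2 differences of 4.92 (SE 0.12) for 697 minus REH and -1.72 (SE 0.08) for RCH-ACV minus 697, with adjusted p-values of 4.1e-17 and 2.93e-12 (edgeR). Both alpha subunits were therefore lowest in REH. Their partner *ARNT* was at 76.3, 71.4 and 77.6 CPM in REH controls, and its log2 difference was 0.01 (SE 0.06) for RCH-ACV minus REH, 0.39 (SE 0.06) for 697 minus REH and -0.38 (SE 0.06) for RCH-ACV minus 697, of which the last 2 passed with adjusted p-values of 5.49e-06 and 1.37e-05 (edgeR).

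*STC2* had 10 counts over the 3 REH controls (0.475, 0.235 and 0.259 CPM), against 97.4, 117 and 70.1 CPM in 697 and 64.6, 61.1 and 63.7 CPM in RCH-ACV. *AK4* was at 0.665, 0 and 0 CPM in REH controls and above 30 CPM in every control of the other lines. *PPFIA4* was at 4.09, 3.67 and 2.72 CPM in REH controls, 10.6-fold lower than in 697 (log2 difference 697 minus REH 3.41, SE 0.12, adjusted p = 1.35e-14, edgeR). These 3 genes lay far lower in REH than in 697 and RCH-ACV. *P4HA2* was at 21.6, 21.6 and 21.4 CPM in RCH-ACV controls, against 1.84, 1.03 and 1.22 CPM in 697 and 1.81, 1.95 and 1.94 CPM in REH. The log2 difference of RCH-ACV minus 697 was 3.95 (SE 0.17, adjusted p = 6.69e-13, edgeR), so here the line that differed was RCH-ACV.

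**Figure D4:**
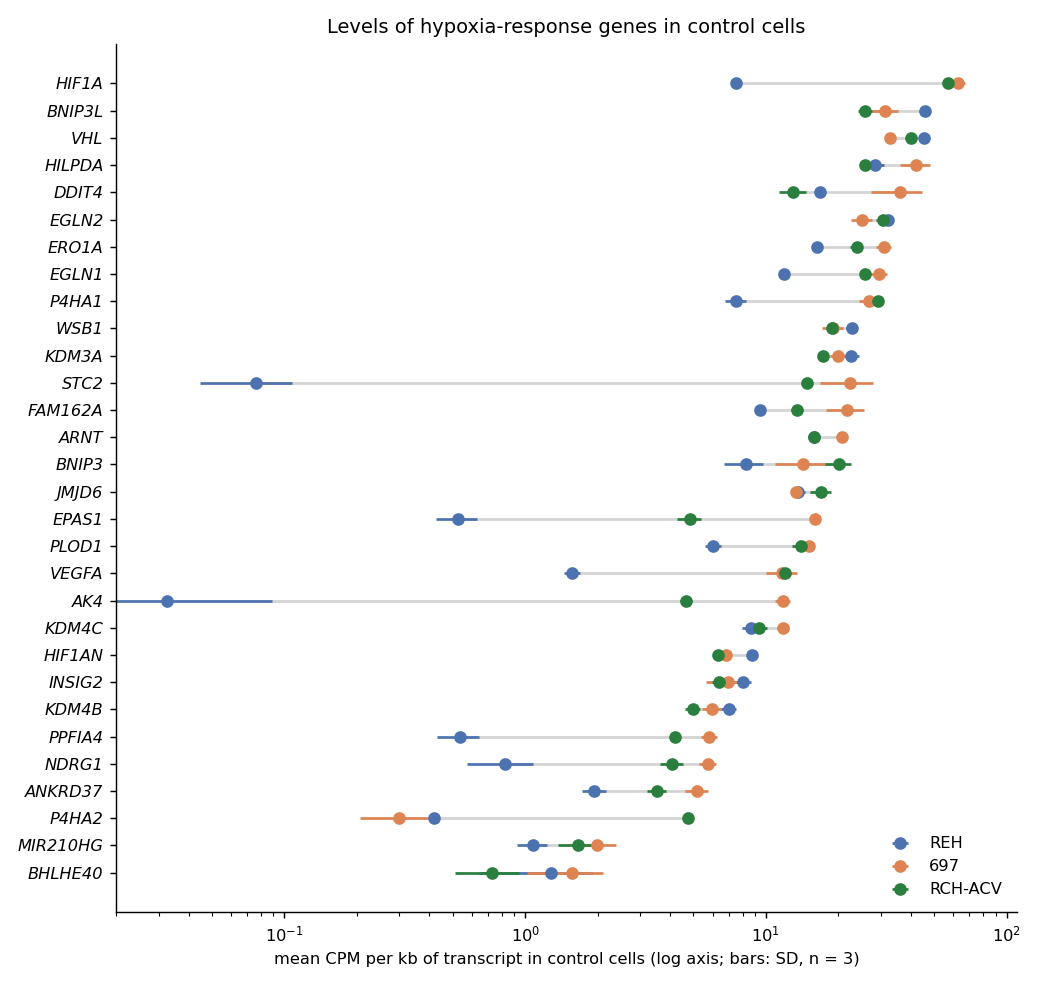
Mean level in control cells of the 30 members tested, in CPM per kb of transcript on a log axis, with the SD of 3 samples as bars. Members are ordered by their highest level, from *HIF1A* at 62.7 in 697 down to *BHLHE40* at 1.56, and the bar of *AK4* in REH (mean 0.0324) runs past the left edge.

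Per kb of transcript, the levels of different genes can be set side by side roughly. The length was that of 1 GENCODE transcript of the gene, which may differ from the RefSeq transcript that was counted. In RCH-ACV controls *HIF1A* was the most abundant member at 57.2 ± 0.642 CPM per kb (SD, n = 3), followed by *VHL* at 40.1 ± 0.821, *EGLN2* at 30.6 ± 1.94 and *P4HA1* at 29.1 ± 1.62, of which *EGLN2* and *P4HA1* lay within each other's spread. In 697 *HIF1A* also led, at 62.7 ± 4.62 CPM per kb, followed by *HILPDA* at 42.0 ± 5.83 and *DDIT4* at 35.9 ± 8.64, which overlapped. In REH *BNIP3L* (46.0 ± 1.80 CPM per kb) and *VHL* (45.5 ± 0.765) stood highest and within each other's spread, and *HIF1A* was at 7.48 ± 0.281. *BHLHE40* and *MIR210HG*, the members with the largest log2 changes in RCH-ACV, were the lowest of the members tested in its controls, at 0.729 ± 0.216 and 1.66 ± 0.294 CPM per kb. *DDIT4* was lower in RCH-ACV controls than in 697 controls (log2 difference -1.46, SE 0.14, adjusted p = 3.58e-08, edgeR). With *SOX11* siRNA the RCH-ACV libraries, at 42.6 to 59.8 CPM, lay within the range of the 697 controls, apart from the first, since the lowest 697 control was at 45.4 CPM.

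Other genes of the pathway were counted from lists written from textbook function with these results known. Their counts in RCH-ACV stand beside 3.59% of all genes higher and 3.92% lower. Of 24 hypoxia targets in glycolysis, 18 were higher and 0 lower in RCH-ACV (median log2 change 0.30). Of 17 HIF cofactors and ubiquitin ligase subunits tested there, 0 were higher and 1 was lower, *ARNT2*, a paralog of *ARNT* (log2 change -0.47, SE 0.08). Of 21 further hypoxia targets outside glycolysis, 4 were higher and 1 lower: the amidating enzyme *PAM* (0.38, SE 0.09), *ZNF395* (0.36, SE 0.05), *KLF10* (0.27, SE 0.07) and the chemokine receptor *CXCR4* (0.26, SE 0.04) rose, and *CCNG2* fell (-0.25, SE 0.07). Of 15 targets of the stress factor ATF4, which can also induce *DDIT4*, 1 was higher, *SHMT2* (0.15, SE 0.04). The medians of the last 3 lists were 0.03, 0.05 and 0.03, beside 0.00 over all genes. In REH, *CXCR4* (0.20, SE 0.04) was the 1 gene called among the 21 further targets, and of 23 glycolysis targets *PFKL* was higher (0.25, SE 0.05) and *PGK1* lower (-0.12, SE 0.03), beside 2.64% of genes higher and 2.01% lower. The other lists held 0 calls in REH, and in 697 none of these 4 lists held a called gene.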

How the data were processed

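Poly(A) RNA libraries (TruSeq Stranded mRNA) of 18 samples were sequenced by the authors, who used STAR 2.5.3a on trimmed, filtered reads with the hg19 genome and HOMER to count on RefSeq transcripts. The authors deposited raw counts, 1 table for each cell line, with no normalization and with 0 columns of other samples. Whether counting used strand is not given in the sources used here, so overlapping and antisense genes cannot be told apart. Of 50678 transcripts 98% matched a symbol, and 1 transcript, the one with the most counts in the 18 samples, was taken for each of 26941 genes.

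Each line was fitted with edgeR 4.0.16 in R 4.3.3 (TMM, filterByExpr, quasi-likelihood F-test, two-sided). The interaction used the 18 samples and the control levels the 9 controls. Benjamini-Hochberg adjustment ran over all genes tested, and an adjusted p under 0.05 was called. CPM per kb used the length of the gene's canonical GENCODE transcript lifted to hg19, or of the longest where no canonical one was lifted. The members, lists and promoter letters were chosen with earlier results of these data known. Named with values in each sample were members called in any line or in the interaction, and the genes of oxygen sensing. For control levels the 6 members with the largest difference were named, and of each other list at most 4 called genes with the largest change in RCH-ACV, plus *CCNG2*, named after its value was seen. Promoters came from members called in RCH-ACV, ordered by interaction p, leaving out chromosome 8 and, after the windows were seen, those with under 200 bases outside the gene's GENCODE transcripts. *P4HA1* dropped out by this, and *FAM162A* came in.

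The alternatives tried were scaling by RLE or by library size alone, no filter, a CPM above 1 in at least 3 samples, DESeq2 1.42.0, the replicate number as a block, the transcript chosen within the samples of a fit, 1 fit over 18 samples, an adjusted p under 0.01, and each sample left out. Leaving out the deepest library was also given on its own, chosen after seeing the data. The fits were tested on simulated data in which 200 genes changed by a log2 of 1. The share recovered ran from 82.5% in the test over the 3 lines to 95.5% in RCH-ACV. Of the calls, 2.12% were false in REH, 4.62% in the test over the 3 lines, 7% in 697, 7.25% between controls and 7.28% in RCH-ACV. Smaller changes were not simulated. The tables and figures used Python 3.11.15, pandas 2.3.3, numpy 2.4.6 and matplotlib 3.10.9.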

Additional observations from a re-analysis of the deposited data

Results flagged for a closer look

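The effect of *SOX11* siRNA passed the interaction test over the 3 cell lines for 5 genes of the hypoxia response (edgeR). The adjustment was that of Benjamini-Hochberg over all genes tested. The adjusted p was 0.00757 for *DDIT4*, 0.0147 for *P4HA1*, 0.015 for *BNIP3*, 0.0298 for *BNIP3L* and 0.0429 for *AK4*. In RCH-ACV each was higher in 3 of 3 *SOX11* siRNA samples than in every control. This separation rests on the samples that gave the calls, and its share over all genes was not counted. *AK4* was near 0 in REH, so its effect could not be compared with that line, and against 697 alone its adjusted p was 0.0749 (edgeR). The 5 genes were chosen with this pattern known, and with the second *SOX11* siRNA replicate of RCH-ACV left out, 0 of them passed, at adjusted p-values between 0.0632 and 0.175 (edgeR).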

How the results depend on the processing

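The members called in RCH-ACV numbered 12 to 14 under every alternative, and between 12 and 14 with each sample left out. *KDM3A* was lost without the first or the second control, *VEGFA* in 1 fit over 18 samples, and *ARNT* was gained in that fit, with library size alone and without the third *SOX11* siRNA replicate. The median log2 change of members there lay between 0.18 and 0.21 with a sample left out. Over all genes, calls in RCH-ACV were 401 at an adjusted p under 0.01 and 582 with DESeq2, against 973, and between 386 (without the second *SOX11* siRNA replicate) and 2479 (without the third) with a sample left out. In REH, 0 members were called at an adjusted p under 0.01 and in 1 fit over 18 samples, and 1 with DESeq2, against 3. With a sample left out it was 0 to 3, with 0 without the third control and 1 without the second or the third *SOX11* siRNA replicate, and the members' median ran from -0.06 to 0.03. Genes called in REH were 275 at 0.01, 313 with DESeq2 and 228 in 1 fit, against 594, and 296 to 522 with a sample left out. In 697, 0 or 1 members were called with a sample left out. Genes called there were 29 at 0.01, 119 with no filter and 189 in 1 fit, against 68, and 25 to 70 with a sample left out.

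The test over the 3 lines was less stable. At an adjusted p under 0.01, 1 member (*DDIT4*) and 45 genes passed, and with no filter on low counts 10 members and 276 genes, against 5 and 103. With a sample left out 0 to 7 members and 57 to 179 genes passed. *AK4* was lost most often. Without the third RCH-ACV *SOX11* siRNA replicate or the first 697 control the genes rose to 179 and 177, and without the second RCH-ACV *SOX11* siRNA replicate they were 57. For RCH-ACV against REH, 0 members passed at 0.01 and 9 with no filter, against 3, and 0 to 6 with a sample left out. For RCH-ACV against 697, 0 passed at 0.01, 6 with no filter and 4 with DESeq2, against 1, and 0 to 4 with a sample left out. The cause was not tested.

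The replicate number as a block left 1 member, *DDIT4*, and 42 genes in the test over the 3 lines, and 29 genes in 697. It changed no other count of members called by more than 1.5 times, and the 13 members of RCH-ACV were the same. Same-numbered samples did not deviate together, with correlations of their deviations from the group means of -0.038, 0.0112 and -0.0194 for REH, -0.15, 0.156 and -0.0986 for 697 and 0.0272, -0.0362 and -0.0337 for RCH-ACV. The labels give these samples only a shared number, and shared handling was not tested. Of the *SOX11* siRNA replicates, only the second of 697 and the first of RCH-ACV correlated best with the control of their own number. The highest correlation, 0.277, was between the third *SOX11* siRNA replicate and the first control of 697, which both stood apart from their groups.

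The counts of members called between control levels moved by under 1.5 times under every alternative. Of 2532 values of single-gene log2 changes and differences under the alternatives, 28 moved by more than 1 SD and none of a called gene reversed.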
